A study of Mus musculus with 4 samples.

Results

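The genes *Cd34*, *Cd38*, *Cd48*, *Slamf1*, *Procr*, *Cd93* and *Prom1* encode 7 surface proteins by which mouse haematopoietic stem and progenitor cells are told apart and sorted. They were chosen by name, and their transcripts were compared in SOX7::GFP high against SOX7::GFP low cells on 4 Affymetrix mouse exon arrays. Of the 7 genes, 6 had probe sets that the platform annotation names for that gene alone, 88 of 321091 such probe sets in all, and *Cd38* was not analysed here. A probe set was kept where the second-highest of its 4 array values was at least 5.04 on the log2 scale, and kept probe sets were averaged to give 1 value per gene. This left 5 of the 7 genes, with 42 kept probe sets, among 18762 genes tested. All 10 probe sets of *Slamf1* fell under this floor.

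Each group comprised 2 arrays, called biological duplicates in the paper. The cells of both groups were bone marrow cells of *iSox7* mice, in which doxycycline switches on SOX7 together with GFP, and the labels also give an iSOX7 cell line derived from Ainv18, a mouse embryonic stem cell line. They were grown on irradiated OP9, a mouse bone marrow stromal line, with Kit ligand (5 µg/ml), interleukin-7 (2 µg/ml) and FLT3 (5 µg/ml), and were sorted after 10 to 12 passages by their SOX7::GFP and cKIT levels. The labels state 1 µg/ml of doxycycline for the cultures that received it, but not which arrays these were, nor the age or number of the mice. The paper describes SOX7::GFP low and high cells as 2 subpopulations of the SOX7::GFP-expressing cells that built up in doxycycline-treated cultures. Separate cultures are not stated for the duplicates, and the p-values therefore cover only the spread between these arrays.

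In adult mouse bone marrow the long-term stem cell is sorted as a cell that carries CD150 (encoded by *Slamf1*), EPCR (*Procr*) and CD38 and that lacks CD48 and CD34, whereas multipotent and lineage-restricted progenitors gain CD48 and CD34. CD93, known as AA4.1, marks early progenitors and B-cell precursors, and prominin-1 (*Prom1*, CD133) is best known as a marker of human stem cells. Several of these proteins are not limited to blood progenitors, since CD34 is also found on mast cells, and CD34, EPCR and CD93 on endothelial cells.

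Genes were called where limma gave an adjusted p (Benjamini-Hochberg) under 0.05 together with a 2-fold or larger change. By this rule 3.61% of the genes tested were higher in SOX7::GFP high cells and 3.24% were lower. The correlation across genes was 0.961 between the SOX7::GFP high arrays, 0.958 between the SOX7::GFP low arrays and 0.859 to 0.865 between arrays of different groups. *Sox7* was at 9.52 and 9.63 in SOX7::GFP high cells, against 9.07 and 8.90 in SOX7::GFP low cells. Its log2 fold change of 0.59 was not called (adjusted p = 0.0859 from limma). *Kit*, whose protein was part of the sort, differed by 0.89 (log2 fold change, adjusted p = 0.0464), which is under 2-fold. Of 8 genes shared by blood cells, among them *Ptprc* (CD45), none was called by limma (1 lower at an unadjusted p under 0.05), and all 8 lay above the floor on all 4 arrays.

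*Cd34* was the only one of the 5 tested members to be called. Its value was 10.07 and 9.74 in SOX7::GFP high cells, against 7.50 and 7.01 in SOX7::GFP low cells. Both SOX7::GFP high arrays thus lay more than 2 log2 units above both SOX7::GFP low arrays, and *Cd34* was well above the floor in the SOX7::GFP low cells as well. On the log2 scale the difference was 2.65 with a standard error of 0.23 (limma, adjusted p = 0.00741), or 6.27-fold with a 95% interval of 4.13 to 9.53. In rank this was the 102nd largest rise of the 18762 genes. Without SOX7::GFP high replicate 1 the log2 fold change was 2.48 and the call was lost (adjusted p = 0.0569), as it also was in the methods' t-test (adjusted p = 0.184). In a bulk sample fewer cells with a transcript and less of it per cell cannot be told apart.

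**Figure D1:**
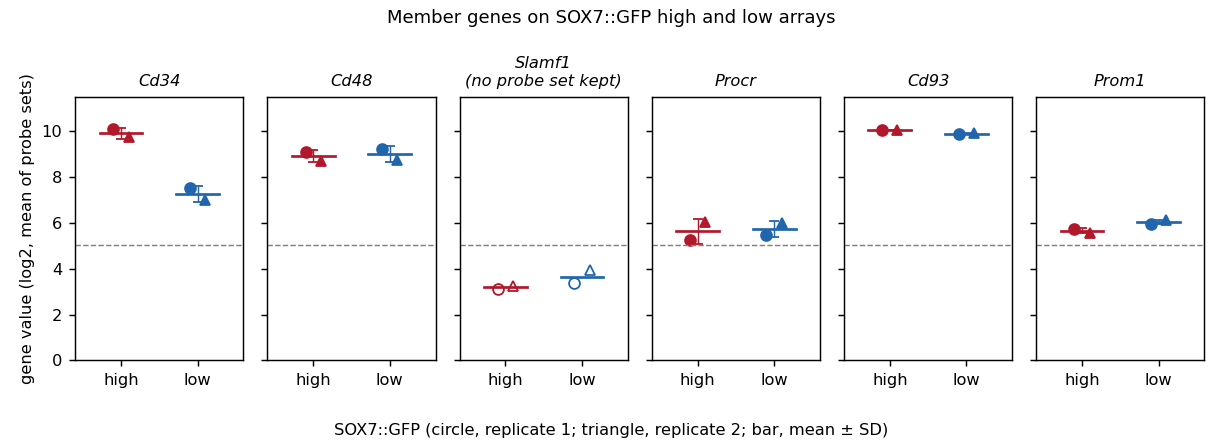
Gene values on the log2 scale (y axis) of the 6 members with named probe sets, on the SOX7::GFP high and SOX7::GFP low arrays (circle, replicate 1; triangle, replicate 2; bar, mean ± SD, n = 2). The dashed line is the floor of 5.04, and open symbols for *Slamf1* are means of 10 probe sets that were not kept; only *Cd34* separates the groups by more than 2 log2 units.

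The difference was seen along the gene's probe sets, which interrogate different stretches of its transcript. Of 17 *Cd34* probe sets, 15 were kept, and for all 15 both SOX7::GFP high arrays lay above both SOX7::GFP low arrays. Among all kept probe sets this held for 30.3%, and the reverse order for 21.2%. The *Cd34* probe sets measure 1 gene on the same 4 arrays and are not independent of one another. The 15 differences ran from 1.45 to 3.16 with a median of 2.73. In a test of every kept probe set on its own, 12 of the 15 were called higher, against 2.25% of all kept probe sets. The remaining 3 were the smallest difference (1.45, probe set 5529857), the next smallest (1.67, probe set 5596294) and the largest (3.16, probe set 5183325), whose SOX7::GFP low arrays were at 6.73 and 5.25. Of the 15, 13 were at or above the floor on all 4 arrays and 1 only on the SOX7::GFP high arrays, so that the floor did not choose most of them for their high values. With probe sets chosen by their mean over all 4 arrays instead, the log2 fold change was 2.73 (adjusted p = 0.0088 from limma).

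**Figure D2:**
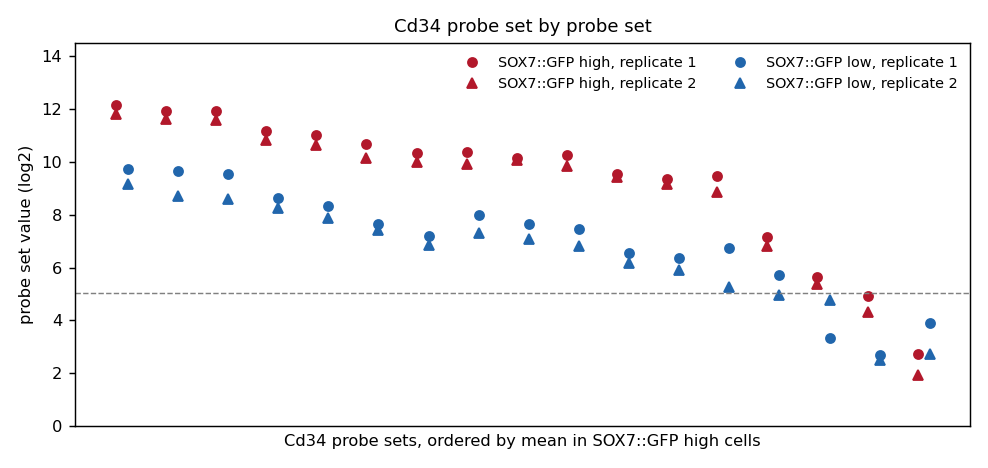
Values on the log2 scale (y axis) of all 17 *Cd34* probe sets (x axis, ordered by their mean in SOX7::GFP high cells) on each array, with the floor of 5.04 as a dashed line. In 16 of the 17 both SOX7::GFP high arrays lie above both SOX7::GFP low arrays, and the exception is the dimmest.

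The promoter of *Cd34* is shown beside those of *Cd48*, which was not called, and *Slamf1*, which lay under the floor. All 3 genes lie on chromosome 1. The windows are from RefSeq, build GRCm38.p6, and hold 300 bases from 250 before to 50 after the annotated start, on the plus strand, at chr1:194938571-194938870, chr1:171681742-171682041 and chr1:171766882-171767181. Capitals mark matches on either strand to AACAAT, a core motif bound by SOX factors, to AGATAA, bound by GATA factors, to TGTGGT, bound by RUNX factors, or to AGGAAG, bound by ETS factors. None of the 4 motifs contains another.
Cd34: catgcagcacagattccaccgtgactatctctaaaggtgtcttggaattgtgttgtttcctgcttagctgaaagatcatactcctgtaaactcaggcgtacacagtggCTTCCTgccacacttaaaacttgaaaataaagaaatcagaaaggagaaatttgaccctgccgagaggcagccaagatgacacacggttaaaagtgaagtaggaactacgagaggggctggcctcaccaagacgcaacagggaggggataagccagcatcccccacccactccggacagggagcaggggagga
Cd48: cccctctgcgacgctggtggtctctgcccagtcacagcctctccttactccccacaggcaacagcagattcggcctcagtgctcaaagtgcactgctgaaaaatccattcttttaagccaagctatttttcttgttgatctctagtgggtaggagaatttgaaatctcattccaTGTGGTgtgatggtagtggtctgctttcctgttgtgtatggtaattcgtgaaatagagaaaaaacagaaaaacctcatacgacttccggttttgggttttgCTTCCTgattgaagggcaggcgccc
Slamf1: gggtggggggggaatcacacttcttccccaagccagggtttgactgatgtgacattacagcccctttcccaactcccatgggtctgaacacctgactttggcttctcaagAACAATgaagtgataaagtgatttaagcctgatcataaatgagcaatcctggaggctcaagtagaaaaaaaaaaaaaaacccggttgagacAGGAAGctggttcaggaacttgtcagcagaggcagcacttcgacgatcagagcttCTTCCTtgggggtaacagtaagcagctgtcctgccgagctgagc
The *Cd34* window held 1 match to the ETS motif and none to the others, the *Cd48* window 1 ETS and 1 RUNX match, and the *Slamf1* window 1 SOX and 2 ETS matches. Among 32851 promoter windows of this length, 10.7% held the SOX motif, 11.2% the GATA motif, 16.8% the RUNX motif and 35.4% the ETS motif. Windows were also found for *Procr*, *Prom1* and *Cd38*, and the SOX motif was in none of these.

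*Cd48* encodes a lipid-anchored SLAM family protein that is spread widely over blood cells and is absent from the long-term stem cell. It was at 9.11 and 8.71 in SOX7::GFP high cells, against 9.23 and 8.74 in SOX7::GFP low cells. The groups overlapped, and replicate 1 was higher than replicate 2 in both, by 0.39 in SOX7::GFP high and by 0.49 in SOX7::GFP low cells, so that the replicates stood further apart than the groups. The log2 fold change was -0.08 with a 95% interval of -0.71 to 0.56 (adjusted p = 0.89 from limma), an interval that leaves out a 2-fold change in either direction. Of its 8 kept probe sets, 7 overlapped between the groups and 7 were higher in replicate 1 of both groups. *Cd34* had the same order of replicates, with replicate 1 higher by 0.33 in SOX7::GFP high and by 0.49 in SOX7::GFP low cells.

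*Slamf1* encodes CD150, the SLAM receptor that marks stem cells and some megakaryocyte-biased progenitors. None of its 10 probe sets reached 5.04 on 2 arrays. The nearest, probe set 5402431, was at 3.92 and 5.79 in SOX7::GFP high cells, against 4.87 and 4.94 in SOX7::GFP low cells. The highest single value of the gene was 6.12, in SOX7::GFP low replicate 2. Over all 10 probe sets the mean was 3.11 and 3.26 in SOX7::GFP high cells and 3.37 and 3.94 in SOX7::GFP low cells. Fitted without a floor, this gave a log2 fold change of -0.47 (95% interval -1.03 to 0.10, adjusted p = 0.326 from limma). Among all 321091 probe sets named for 1 gene, 19.7% were lower on both SOX7::GFP high arrays and 81204 were higher on both. Of the 10 *Slamf1* probe sets, 3 were lower on both SOX7::GFP high arrays, 1 was higher on both and 6 overlapped. The widest differences were -2.12, for probe set 5609881, at 1.71 and 1.75 in SOX7::GFP high and at 3.11 and 4.59 in SOX7::GFP low cells, and -1.71, for probe set 4573881, at 3.14 and 1.88 in SOX7::GFP high and at 4.25 and 4.20 in SOX7::GFP low cells. All 8 of these values lay under the floor.

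*Cd48* and *Slamf1* lie in a cluster of SLAM genes on chromosome 1, whose order, taken from RefSeq, is *Cd244a*, *Ly9*, *Slamf7*, *Cd48*, *Slamf1*, *Cd84* and *Slamf6*, with the small gene *Tma7-ps* between *Cd48* and *Slamf1*. The neighbours of members were examined after their values were seen. No tested neighbour of *Procr* or *Cd93* was called. Beside *Cd34* only *Plxna2* was called, and it was lower (log2 fold change -1.10, adjusted p = 0.0191 from limma). *Plxna2* lay under the floor in SOX7::GFP high cells (4.98 and 4.93). *Cd244a* encodes 2B4, the receptor that binds CD48, and rose to 7.82 and 7.55 in SOX7::GFP high cells, against 5.93 and 5.32 in SOX7::GFP low cells (log2 fold change 2.06, adjusted p = 0.0156 from limma). *Ly9*, a further SLAM receptor gene, fell to 6.26 and 6.02, against 8.06 and 7.74 in SOX7::GFP low cells (log2 fold change -1.76, adjusted p = 0.0109). *Slamf7* and *Slamf6* were lower on both SOX7::GFP high arrays but not called. *Slamf7* was at 3.77 and 4.31 in SOX7::GFP high and at 5.996 and 8.09 in SOX7::GFP low cells (adjusted p = 0.0765), and *Slamf6* at 3.82 and 4.60 in SOX7::GFP high and at 5.84 and 8.27 in SOX7::GFP low cells (adjusted p = 0.125). In both genes the SOX7::GFP low arrays stood more than 2 log2 units apart. For *Cd84*, log2 fold change 1.14, the adjusted p was 0.0917.

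Of 9 measured genes in a list of SLAM relatives and partners, 2 were called higher, 2 lower and 5 did not pass. Over all genes tested, 3.61% were called higher and 3.24% lower. The list median was -0.92, beside 0.05 over all genes. Besides *Cd244a* and *Ly9* those called were *Sh2d1b1*, which encodes the SLAM adaptor EAT-2 (log2 fold change 1.59, adjusted p = 0.0072 from limma), and *Cd2*, which encodes an adhesion receptor that also binds CD48. In SOX7::GFP low cells *Sh2d1b1* lay under the floor, at 4.46 and 4.52. *Cd2* was at 4.25 and 5.12 in SOX7::GFP high and at 7.08 and 6.79 in SOX7::GFP low cells (log2 fold change -2.25, adjusted p = 0.0227). Of the 9 measured genes, 5 were at or above the floor on every array. Transcripts of the receptors for CD48 thus differed in opposite directions while *Cd48* itself did not pass.

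**Figure D3:**
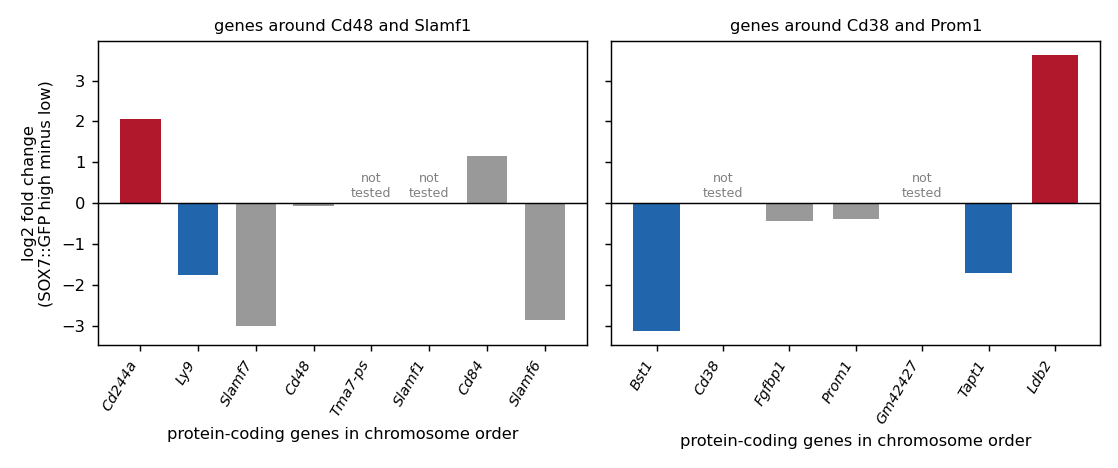
Log2 fold changes, SOX7::GFP high minus SOX7::GFP low (y axis), of protein-coding genes in their order on the chromosome, around *Cd48* and *Slamf1* (left) and around *Cd38* and *Prom1* (right). Red bars were called higher, blue bars lower and grey bars not called; *Cd48* and *Prom1* show small differences between neighbours such as *Cd244a* (2.06) and *Bst1* (-3.14) that were called.

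*Cd93* encodes a transmembrane C-type lectin of early progenitors, myeloid cells and endothelium. All 10 of its probe sets were kept, and all lay above the floor on all 4 arrays. Its value was 10.05 and 10.03 in SOX7::GFP high cells and 9.88 and 9.90 in SOX7::GFP low cells. The arrays did not overlap, as was the case in the same direction for 32.2% of all genes, but the log2 fold change was only 0.15 (standard error 0.13, 95% interval -0.19 to 0.50, adjusted p = 0.562 from limma). The interval leaves out a change of 2-fold. Among all kept probe sets, 30.3% were higher on both SOX7::GFP high arrays and 21.2% lower on both. Of the 10 *Cd93* probe sets 4 were higher on both SOX7::GFP high arrays, 1 was lower on both and 5 overlapped. Probe set 4632879, the dimmest, stood apart with a difference of 0.84, at 6.62 and 6.44 in SOX7::GFP high and at 5.52 and 5.87 in SOX7::GFP low cells, and was not called (adjusted p = 0.146). The differences of the other 9 ran from -0.14 to 0.23, and the median over the probe sets instead of their mean brought the log2 fold change of the gene to -0.003.

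*Procr* encodes the endothelial protein C receptor, EPCR. It had 3 kept probe sets of 10, only 1 of which was at the floor or above on all 4 arrays. Its value was 5.25 and 6.02 in SOX7::GFP high cells and 5.47 and 5.98 in SOX7::GFP low cells. The groups overlapped, and here replicate 2 was higher than replicate 1 in both. The log2 fold change was -0.09 with a 95% interval of -0.94 to 0.76 (adjusted p = 0.904 from limma). The brightest probe set, 4768433, was at 7.10 and 6.79 in SOX7::GFP high and at 7.54 and 7.34 in SOX7::GFP low cells, and was not called (difference -0.50, adjusted p = 0.322). The member probe set just inside the floor also belonged to *Procr*, probe set 5403549, with a second-highest value of 5.11. Just outside it was probe set 5449879 of *Prom1*, at 5.03.

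*Prom1* encodes prominin-1, a cholesterol-binding protein of membrane protrusions. Of its 31 probe sets, 6 were kept. Its value was 5.73 and 5.57 in SOX7::GFP high cells and 5.96 and 6.11 in SOX7::GFP low cells. The groups did not overlap, SOX7::GFP high being lower, which was also so for 22.2% of all genes. The log2 fold change of -0.38 was not called (standard error 0.15, 95% interval -0.77 to 0.01, adjusted p = 0.214 from limma). Among all kept probe sets, 21.2% were lower on both SOX7::GFP high arrays and 30.3% higher on both. The 6 kept *Prom1* probe sets did not share a direction: 3 were lower on both SOX7::GFP high arrays, 1 was higher on both and 2 overlapped. Of the 6, 4 were at or above the floor on all 4 arrays. Another 1, probe set 5394409, reached it only on the SOX7::GFP low arrays. The largest differences below 0 were those of probe set 5394409, at 4.79 and 4.56 in SOX7::GFP high and at 5.88 and 6.96 in SOX7::GFP low cells, and of probe set 4433228, at 3.75 and 5.14 in SOX7::GFP high and at 5.49 and 5.92 in SOX7::GFP low cells. By contrast, probe set 5320949 was at 6.03 and 5.39 in SOX7::GFP high and at 5.38 and 5.09 in SOX7::GFP low cells. None of the 6 was called on its own. With a floor 1 log2 unit higher the log2 fold change was -0.06, and with the median of probe sets it was 0.03. Without a filter it was instead -0.56 (95% interval -1.02 to -0.10, adjusted p = 0.167 from limma). A quantile step after RMA gave -0.47 and centring on reference genes -0.48, neither of them called. Counting dropped probe sets too, 15 of 31 were lower on both SOX7::GFP high arrays, against 19.7% of all probe sets named for 1 gene. Probe sets of 1 gene on the same 4 arrays are not independent.

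**Figure D4:**
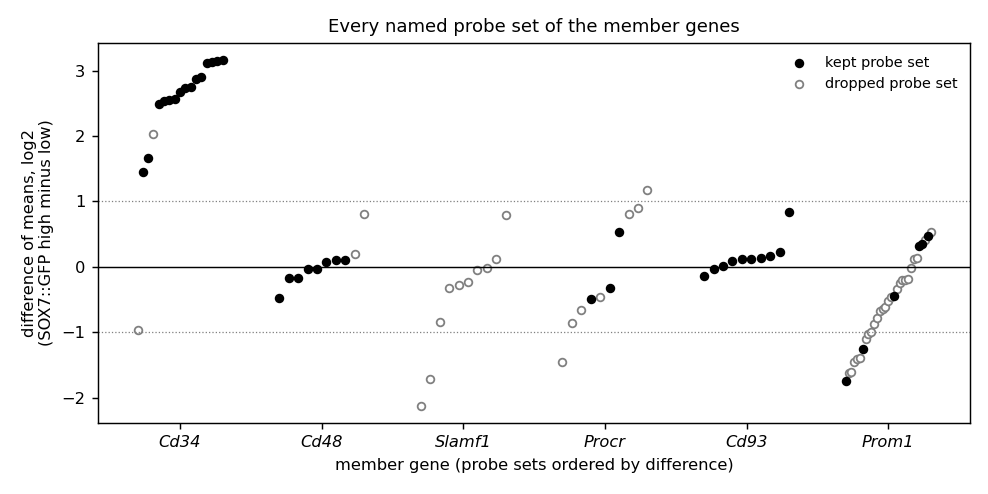
Difference of the group means on the log2 scale, SOX7::GFP high minus SOX7::GFP low (y axis), for each of the 88 named probe sets, grouped by member (x axis). Filled points were kept and open points dropped, and dotted lines mark a change of 2-fold; the 15 kept *Cd34* probe sets lie between 1.45 and 3.16, while no kept *Cd48* or *Cd93* probe set reaches 1 in either direction.

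*Prom1* lies on chromosome 5 close to *Cd38*, whose own level was not analysed here. The gene next to *Cd38*, *Bst1*, encodes CD157, its sister enzyme in NAD metabolism, which is also carried by B-cell precursors and myeloid cells. *Bst1* was at 3.91 and 4.92 in SOX7::GFP high and at 7.56 and 7.54 in SOX7::GFP low cells (log2 fold change -3.14, adjusted p = 0.0123 from limma). On the other side of *Prom1*, *Tapt1* (log2 fold change -1.72, adjusted p = 0.0166) was lower and *Ldb2*, which encodes a LIM domain-binding cofactor, was higher (log2 fold change 3.62, adjusted p = 0.00452). *Ldb2* was at 8.69 and 8.76 in SOX7::GFP high and at 4.82 and 5.39 in SOX7::GFP low cells. The sizes of the *Bst1* and *Ldb2* differences thus rest in part on values under the floor. *Fgfbp1*, between *Cd38* and *Prom1*, was not called (log2 fold change -0.43, adjusted p = 0.309).

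A second list held relatives and partners of the members outside the SLAM family. Of 11 measured, 1 was called higher and 1 lower, 9 did not pass and the median was -0.02. Over all genes tested, 3.61% were called higher and 3.24% lower. The gene lower was *Bst1*, and the gene higher was *Pecam1*, which encodes the adhesion protein CD31, a ligand of CD38. *Pecam1* was at 9.75 and 9.45 in SOX7::GFP high and at 8.28 and 8.09 in SOX7::GFP low cells (log2 fold change 1.42, adjusted p = 0.0154 from limma). Genes that did not pass comprised the CD34 relatives *Podxl* and *Podxl2*, the EPCR ligand *Proc*, the thrombin receptor *F2r*, the CD93 relatives *Thbd*, *Clec14a* and *Cd248*, the CD93 ligand *Mmrn2* and the prominin relative *Prom2*. Their log2 fold changes ran from -0.76 for *Cd248* (adjusted p = 0.0533) to 2.13 for *F2r* (adjusted p = 0.0687).

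*Cd34* was accompanied by other surface genes used to sort stem and progenitor cells. Of 19 measured genes of that list, 9 were called higher, 2 lower and 8 did not pass, with a median log2 fold change of 0.89. Over all genes tested, 3.61% were called higher and 3.24% lower. Receptor genes that rose were the angiopoietin receptor gene *Tek* (2.73, adjusted p = 0.00745 from limma), the TNF receptor family gene *Cd27* (2.52, adjusted p = 0.00542) and the cytokine receptor gene *Flt3* (2.10, adjusted p = 0.0358). The adhesion genes *Esam* (2.72, adjusted p = 0.0191) and *Itga2b* (2.40, adjusted p = 0.00847), which encodes CD41, the tetraspanin gene *Cd9* (2.12, adjusted p = 0.0062) and the Fc receptor gene *Fcgr3* (1.82, adjusted p = 0.006) were also higher. Of the 19 genes, 16 were at or above the floor on all 4 arrays. In SOX7::GFP low cells *Tek* (4.01 and 4.63) and *Cd27* (4.98 and 4.65) lay under the floor on both arrays. *Esam* lay under it in SOX7::GFP low replicate 1 (4.41). The sizes of these 3 rises thus rest in part on values under the floor. The widest fall was that of the interleukin-7 receptor gene *Il7r*, at 7.51 and 6.69 in SOX7::GFP high and at 10.50 and 10.08 in SOX7::GFP low cells (log2 fold change -3.19, adjusted p = 0.0104). Named after their values were seen, the other 3 called were *Thy1* (1.75) and *Itga6* (1.19), which were higher, and *Ly6a* (-1.68), which encodes SCA1 and was lower. Over the 3 lists together 12 genes were called higher and 5 lower. Leaving out SOX7::GFP high replicate 1 brought these numbers to 2 higher and 2 lower, and leaving out its replicate 2 to 3 and 3. Leaving out replicate 1 of SOX7::GFP low brought them to 8 and 5, and leaving out its replicate 2 to 9 and 3.

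**Figure D5:**
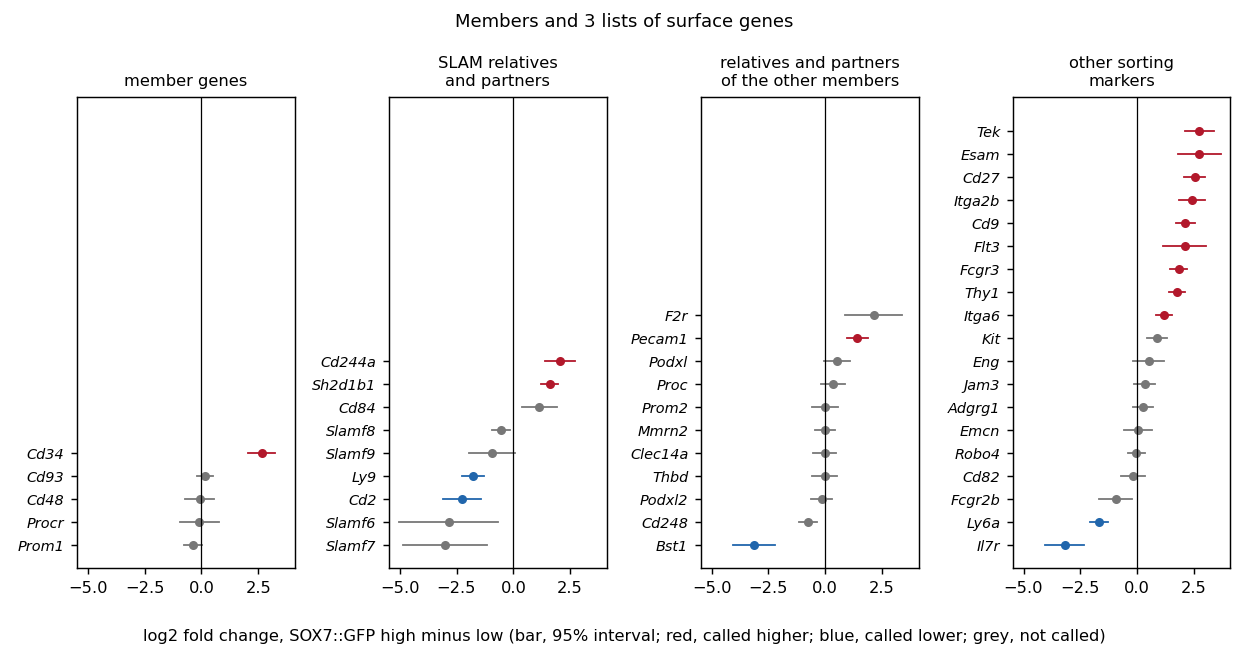
Log2 fold changes, SOX7::GFP high minus SOX7::GFP low (x axis), with 95% intervals for the 5 tested members and the measured genes of 3 lists. Red marks genes called higher, blue genes called lower and grey genes not called; *Cd34* (2.65) lies among the largest rises of the other sorting markers, from *Flt3* (2.10) to *Tek* (2.73), while the intervals of the other 4 members include 0.

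Markers of cell types that also carry some of these proteins were read on the same arrays, where 3.61% of all genes were called higher and 3.24% lower. The share of all genes at an unadjusted p under 0.05 in limma is not given here. Of 7 mast cell and basophil markers, 3 were called higher and none lower by limma (at an unadjusted p under 0.05, 6 higher and 0 lower), led by the protease gene *Cpa3* (log2 fold change 3.20). Their mean value was 8.88 and 7.99 in SOX7::GFP high cells and 6.76 and 6.55 in SOX7::GFP low cells. Of 7 megakaryocyte markers, 5 were higher and none lower (6 and 0 at an unadjusted p under 0.05), led by *Gp5* (2.62), with means of 7.54 and 7.98 in SOX7::GFP high cells and 5.66 and 6.08 in SOX7::GFP low cells. The mean of each list, like *Cd34*, was thus higher on both SOX7::GFP high arrays, although 4 and 2 of their genes did not pass, and their part in the *Cd34* difference was not tested. *Itga2b* is in the megakaryocyte list as well as among the sorting markers, and *Pecam1* is in the endothelial list as well as among the partners of CD38.

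Of 7 endothelial markers, 3 were higher, led by *Cdh5* (2.78), 1 fell and 3 were not called, with means of 7.51 and 7.65 in SOX7::GFP high cells and 6.93 and 6.84 in SOX7::GFP low cells. The marker that fell, named after its value was seen, was *Kdr* (-1.63), which lay under the floor in SOX7::GFP high cells (4.34 and 4.46). The part of endothelial transcripts in the *Cd34* difference was not tested. Of 7 stromal markers, read because the cells were grown on OP9, none was called by limma (1 higher at an unadjusted p under 0.05, *Pdgfrb*, log2 fold change 0.87). Their means were 6.50 and 6.43 in SOX7::GFP high cells and 6.61 and 5.84 in SOX7::GFP low cells.

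All 10 B-lineage markers were lower, led by *Rag1* (-4.85), with means of 5.40 and 6.68 in SOX7::GFP high cells and 10.32 and 10.18 in SOX7::GFP low cells. Of the 10, 7 were at or above the floor on all 4 arrays, and *Rag1* lay under it in SOX7::GFP high replicate 1 (4.55). *Cd93*, *Bst1* and *Il7r*, which B-cell precursors also carry, did not move alike, with log2 fold changes of 0.15, -3.14 and -3.19. The part of B-lineage cells in the *Bst1* and *Il7r* differences was not tested. Of 7 neutrophil markers, 4 were lower and none higher (6 and 0 at an unadjusted p under 0.05), led by *Ngp* (-5.75), with means of 8.34 and 7.61 in SOX7::GFP high cells and 10.88 and 11.26 in SOX7::GFP low cells. Here 5 of the 7 were at or above the floor on all 4 arrays, and *Ngp* lay under it in SOX7::GFP high replicate 2 (4.37). Macrophage markers (0 of 6 called, 1 in each direction at an unadjusted p under 0.05, widest difference *Cd14* with -1.16), T and NK cell markers (1 of 5 called, *Gzmb* with 4.26) and erythroid markers (0 of 4 called, 0 at an unadjusted p under 0.05, widest difference *Klf1* with 0.63) completed the lists.

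Genes with the profile most like that of each member were sought among all genes tested, by the root mean square distance over the 4 arrays after each gene was centred on its own mean. For *Cd34* these were the transferrin gene *Trf* (distance 0.07 log2 units), at 10.22 and 10.03 in SOX7::GFP high and at 7.61 and 7.22 in SOX7::GFP low cells, and *Cables1* (0.08), at 7.26 and 6.89 in SOX7::GFP high and at 4.51 and 4.01 in SOX7::GFP low cells. For *Cd48* they were *Nebl* and *1810010K12Rik*, for *Procr* *H2bu2* and *Kcnip4*, for *Cd93* *2700099C18Rik* and *Ttll4*, and for *Prom1* *Paip2* and *Mthfsd*, at distances of 0.0047 to 0.0337. With 4 arrays such a likeness describes these arrays only.

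Ordered by their log2 fold change, the tested members were *Cd34* (2.65), *Cd93* (0.15), *Cd48* (-0.08), *Procr* (-0.09) and *Prom1* (-0.38). The 95% interval of *Cd34* started at 2.04, above the upper ends of the other 4, which ran from 0.01 for *Prom1* to 0.76 for *Procr*. The intervals of these 4 overlapped one another, which does not by itself decide whether they differ, and members were not tested against each other. In absolute size the change of *Cd34* exceeded that of 98.8% of all genes, against 67.8% for *Prom1*, 35.0% for *Cd93*, 21.4% for *Procr* and 18.1% for *Cd48*.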

How the data were processed

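RNA of the sorted cells was measured on Affymetrix mouse exon arrays, 2 for SOX7::GFP high and 2 for SOX7::GFP low by the sample titles. For 1236087 probe sets the authors deposited log2 values, background-adjusted and normalized by RMA (robust multi-array average, version not given in the sources used here). Their filter on detection scores is not part of that table, and values ran from 0.55 to 14.44. Arrays carry no read counts, and precision is limited by their number.

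Probe sets with 1 gene symbol in the platform annotation were used. Older symbols (4259) were replaced through the synonyms of the GRCm38.p6 gene table where 1 gene matched, and 7796 probe sets with several symbols and 907200 with none were left out. The second-highest array value had to reach 5.04, kept probe sets (191615) were averaged per gene, and limma 3.58.1 in R 4.3.3 compared the groups with empirical Bayes over 18762 genes, after a test on simulated data. Members, lists and tests were chosen with earlier results of these data known. The genes named are all members, called list genes up to 8 per list by size, the widest difference of each marker list and the 2 nearest profiles per member. List genes without a kept probe set were not tested, and protein sequences were not used here. Alternatives were other filters, summaries, normalizations and tests, a replicate block, each array left out and no fold threshold.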

Additional observations from a re-analysis of the deposited data

How the results depend on the processing

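The *Cd34* call and the count of members called (1 higher, 0 lower) held in limma with no filter, a stricter filter, a filter on the mean, medians or at least 3 probe sets per gene, centring on 11 reference genes (of which *Gusb* was itself called higher), a quantile step after RMA, a robust fit with trend, no fold threshold and the replicate block, with log2 fold changes of *Cd34* from 2.40 to 2.79. With 1 array left out, this log2 fold change ran from 2.41 to 2.89, and the members called higher from 0, without SOX7::GFP high replicate 1, to 1. Genes called ran from 145 to 406 higher and from 166 to 313 lower, and genes of the 3 lists from 2 to 9 higher and from 2 to 5 lower. These fits use fewer arrays. The paper names Student's t-test for its data in general, without naming a test for the arrays. Applied here, this t-test called 0 genes higher and 0 lower after Benjamini-Hochberg adjustment (2139 and 1365 at an unadjusted p under 0.05, whatever the fold). It thus called 0 members and 0 genes of the 3 lists. It gave *Cd34* an adjusted p of 0.184. A test per probe set found 1150 genes with a probe set called higher, beside 678 by gene.

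No other member was called in any fit, but directions turned. The log2 fold change of *Cd48* was 0.039 without a filter and ran from -0.32 to 0.17 with 1 array left out. That of *Procr* ran from -0.48 to 0.30 with 1 array left out. With the median of probe sets *Cd93* was at -0.003 and *Prom1* at 0.030. The cause was not tested. The labels number the replicates 1 and 2 in both groups without saying what a number shares. Differences between replicates 1 and 2 correlated at r = 0.104 across genes between the groups. With the replicate block 704 genes were higher and 642 lower, and *Cd34* kept its call (adjusted p = 0.00967 from limma).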
